A study of Mus musculus with 12 samples.

Results

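The genes described here, 10 in all, move or store zinc in mouse liver: the ZIP importers Slc39a1, Slc39a4, Slc39a5, Slc39a7, Slc39a8 and Slc39a14, the exporters Slc30a1 and Slc30a10, and the metallothioneins Mt1 and Mt2. They were found by gene name, as 10 of 34986 genes in the table, and all 10 were among the 19006 genes tested. The names were chosen by someone who knew the results of the comparison described, in particular that Slc39a5 was among the genes that fell most, so the fold changes and adjusted p-values between the groups below describe these genes and are not independent evidence. Livers of 12 female C57BL/6 mice aged 16 weeks were sequenced. Of these, 6 mice were given valproic acid together with obeticholic acid (VPA_OCA) and 6 valproic acid alone (VPA). Valproic acid is a medicine for epilepsy with known liver toxicity, and obeticholic acid is a bile acid derivative that activates the farnesoid X receptor, FXR. All 12 mice therefore carried valproic acid, no allele was altered, and neither dose nor length of treatment is given in the labels used here. The comparison asks which liver transcripts change when FXR is activated on top of valproic acid.

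ZIP proteins carry zinc into the cytosol, from outside the cell or out of organelles, and several also carry iron, manganese or cadmium. ZnT proteins work in the other direction, out of the cytosol. Metallothioneins are small cysteine-rich proteins that bind zinc and copper in the cytosol, and their genes are switched on by the zinc-sensing factor MTF1 through metal response elements, and also by glucocorticoids and inflammatory signals. The liver takes up zinc during inflammation, chiefly through the Slc39a14 product, and stores it on metallothionein.

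The sequences before the starts of Mt1, Mt2 and Slc39a5 are shown because the metallothioneins moved together from library to library and Slc39a5 was the member that fell. Each is 250 bases ending just before a start annotated in RefSeq (GRCm38.p6), 5′ to 3′ on the gene's strand. These RefSeq starts differ from the ends of the gene coordinates given further below. Every distance to a start in this paragraph is to the RefSeq start. Capitals mark matches to the 7-base core of the metal response element, TGCACNC or TGCGCNC, searched on both strands with overlapping matches joined.
Mt1 (chr8:94178839-94179088, + strand): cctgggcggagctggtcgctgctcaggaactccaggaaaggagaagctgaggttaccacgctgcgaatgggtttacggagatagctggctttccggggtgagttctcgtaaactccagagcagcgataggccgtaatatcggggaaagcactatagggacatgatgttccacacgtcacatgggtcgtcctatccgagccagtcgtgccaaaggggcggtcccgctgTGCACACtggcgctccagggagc
Mt2 (chr8:94172368-94172617, + strand): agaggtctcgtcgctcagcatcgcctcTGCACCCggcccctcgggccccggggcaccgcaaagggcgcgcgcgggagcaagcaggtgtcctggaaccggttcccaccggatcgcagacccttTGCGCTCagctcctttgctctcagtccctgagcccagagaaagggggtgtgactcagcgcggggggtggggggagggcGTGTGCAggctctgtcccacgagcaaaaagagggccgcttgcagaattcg
Slc39a5 (chr10:128401225-128401474, - strand): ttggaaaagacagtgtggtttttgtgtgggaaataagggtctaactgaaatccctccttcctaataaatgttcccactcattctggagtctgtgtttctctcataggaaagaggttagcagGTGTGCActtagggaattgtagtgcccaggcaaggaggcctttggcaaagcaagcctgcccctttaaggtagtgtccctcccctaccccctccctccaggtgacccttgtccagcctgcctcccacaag
Mt2 held 3 matches in its window, with the last base 217, 122 and 44 bases before the start, and 1 more in the first 50 bases after it. Mt1 held 1 match, its last base 17 bases before the start, and 2 more in the first 50 bases after it. Matches farther after a start were not counted, so the numbers for Mt1 and Mt2 depend on the annotated starts and do not rank the genes. In the Slc39a5 window there was 1 match, its last base 123 bases before the start, with none in the 50 bases after it, and a second annotated start of the gene had none. Of the other members with an entry, Slc30a10 held 2 matches and Slc30a1 held 1, with 1 more after the start for Slc30a1 and none for Slc30a10, while the windows of Slc39a1 and Slc39a7 held none. Slc39a8 has a pair of annotated starts, of which 1 window held a match. Among 32851 promoter windows of the same length, 21.4% held at least 1 match, 4.30% at least 2 and 0.770% at least 3. The inverted repeat of AGGTCA on both strands with 1 base between its arms, a form of FXR response element, was in none of the 10 windows of the 8 members with an entry and in 2 windows of all genes. A match is a description of letters and not of binding.

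Values are the authors' normalized counts, estimated reads scaled to totals of 20236900 to 22087711 per library; estimated depths were 17879222 to 37746632 reads, deepest in VPA_OCA library 1. The labels number the libraries 1 to 6 in each group, and in both groups the libraries numbered 1 to 3 stand apart from those numbered 4 to 6. The first principal component, 40.4% of the variance over 11481 genes, placed the libraries numbered 4 to 6 at 16.3 or higher and those numbered 1 to 3 at -10.3 or lower. The mitochondrial share of counts was 5.84% to 7.51% in numbers 4 to 6 and 9.09% to 11.7% in numbers 1 to 3. The labels do not say what the numbers mean, so values within each set are given beside the results. Hepatocyte transcripts dominated every library, with albumin (Alb) at 1512000 to 2600000 in VPA_OCA and 1731000 to 2550000 in VPA.

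Slc39a5, a zinc importer best known from the basolateral side of intestinal and pancreatic cells and also made by hepatocytes, fell 4.58-fold in VPA_OCA livers. In VPA_OCA libraries 1 to 6 its normalized counts were 44.7, 47.9, 54.2, 79.0, 106 and 116. In VPA libraries 1 to 6 they were 283, 414, 354, 347, 288 and 273. Every VPA_OCA library lay below every VPA library, and within VPA_OCA the 3 libraries numbered 1 to 3 were the lowest. The means were 74.7 ± 30.9 in VPA_OCA and 326 ± 55.0 in VPA (SD, n = 6 each). Its log2 fold change was -2.20 ± 0.23 (SE), with a limma adjusted p of 0.000118 over all genes tested, the 11th smallest p. It was the only one of the 10 members past the threshold of 0.05; over all genes tested 137 passed (0.721%), 53 lower (0.279%) and 84 higher (0.442%). With the replicate number as a block 210 genes passed, and the limma adjusted p of Slc39a5 was 0.00077. With a term for the sets of numbers 404 genes passed (2.13%), and Slc39a5, at 1.6e-05, was again the only one of the 10. Over 30 alternatives its adjusted p ran from 1.5e-05 to 0.0062. Values of the 2 groups did not overlap in 1.44% of the genes tested, and did so with VPA_OCA lower in 0.526%.

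**Figure D1:**
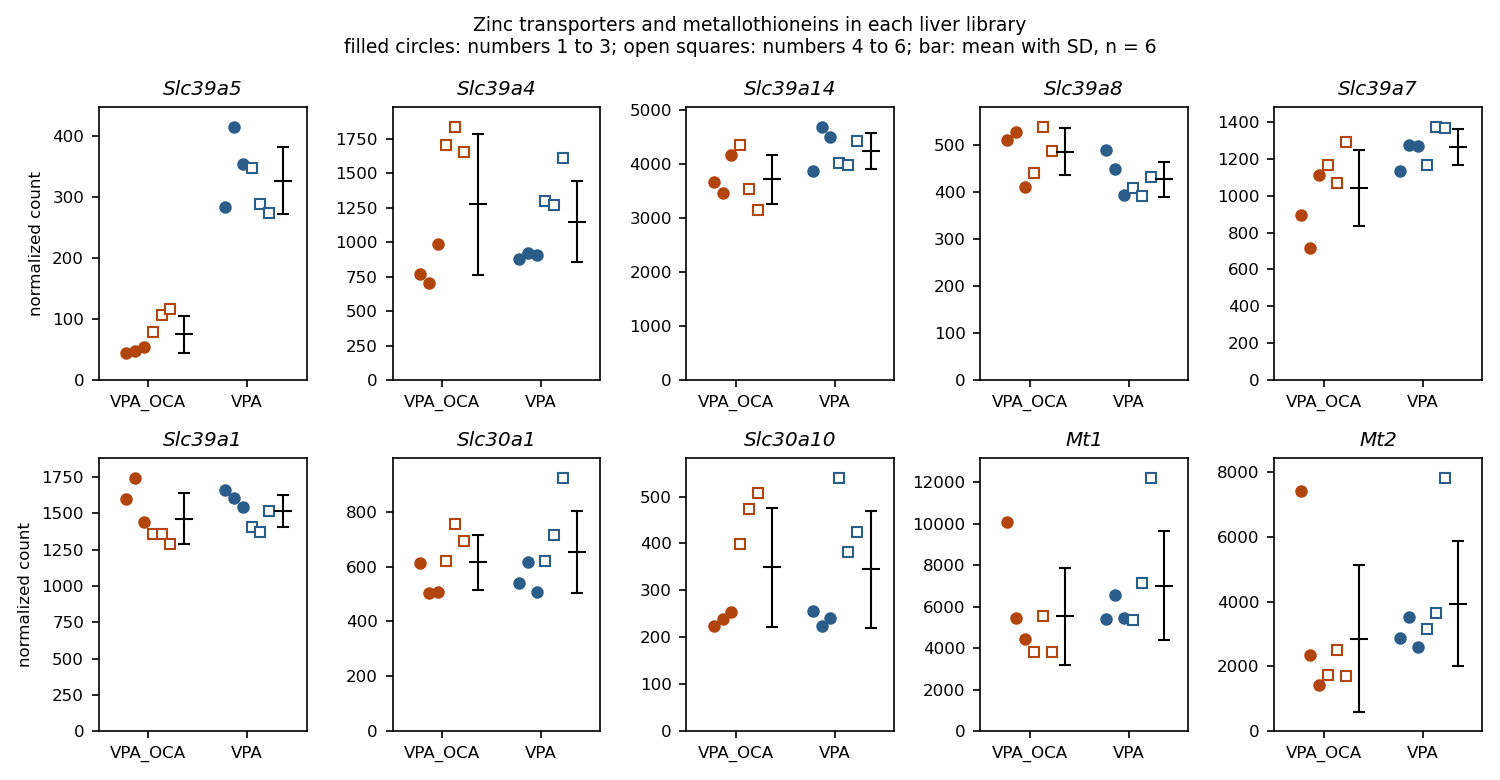
Normalized counts (vertical axes, from 0) of the 10 genes in the 6 VPA_OCA and 6 VPA livers, with filled circles for numbers 1 to 3, open squares for numbers 4 to 6 and the mean with its SD beside each group. Slc39a5 is at 44.7 to 116 in VPA_OCA and 273 to 414 in VPA, while the groups of each other gene overlap.

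The Slc39a5 difference was also read within each set of libraries. Within numbers 1 to 3 its mean was 48.9 ± 4.83 in VPA_OCA and 350.4 ± 65.7 in VPA (SD, n = 3 each), 6.97-fold lower, with a limma adjusted p of 8.1e-05. Within numbers 4 to 6 it was 100.5 ± 19.3 in VPA_OCA and 302 ± 38.9 in VPA, 3.01-fold lower, with a limma adjusted p of 0.0062. Numbers 4 to 6 minus numbers 1 to 3 gave a log2 difference of 1.21 ± 0.25 (SE) between the folds. Its interaction adjusted p by limma, over all genes tested, was 0.21, which shows neither a difference nor that the folds are alike. In that test 2 genes of all tested passed (0.0105%). Whether the mitochondrial share has a part in this was not tested.

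The ratio of Slc39a5 to Slc39a4, the importer of dietary zinc in the intestine, varied less between VPA_OCA libraries than either gene did. Between VPA libraries the ratio varied more than either gene did. As a ratio of normalized counts it lay between 0.0465 and 0.0703 in VPA_OCA and between 0.1697 and 0.450 in VPA. Both genes were higher in VPA_OCA libraries 4 to 6 than in VPA_OCA libraries 1 to 3. In VPA, the set numbered 4 to 6 was higher for Slc39a4 only, and Slc39a5 overlapped between the sets.

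Slc39a5 lies on the minus strand of chromosome 10, from 128395931 to 128401229 (GRCm38, ENSMUSG00000039878). Within 50 kb of it reach 5 other tested genes, and none of them passed the test. Nabp2, whose product binds single-stranded DNA and whose gene lies just upstream, had a mean of 633 ± 64.1 in VPA_OCA and 569 ± 56.5 in VPA. Ankrd52, a regulatory subunit gene of a protein phosphatase, runs across Slc39a5 on the plus strand. Its mean was 310 ± 92.6 in VPA_OCA and 347 ± 50.9 in VPA (SD, n = 6 each), and the labels do not say whether counting used strand, so reads of the overlap cannot be assigned to one of them. Coq10a, a coenzyme Q carrier gene, averaged 365 ± 49.9 in VPA_OCA and 407 ± 37.9 in VPA. Cs, citrate synthase, averaged 3091 ± 935 in VPA_OCA and 2904 ± 744 in VPA. Rnf41, a ubiquitin ligase gene, averaged 168 ± 18.4 in VPA_OCA and 161 ± 13.4 in VPA. Their limma adjusted p-values ran from 0.69 to 0.96.

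**Figure D2:**
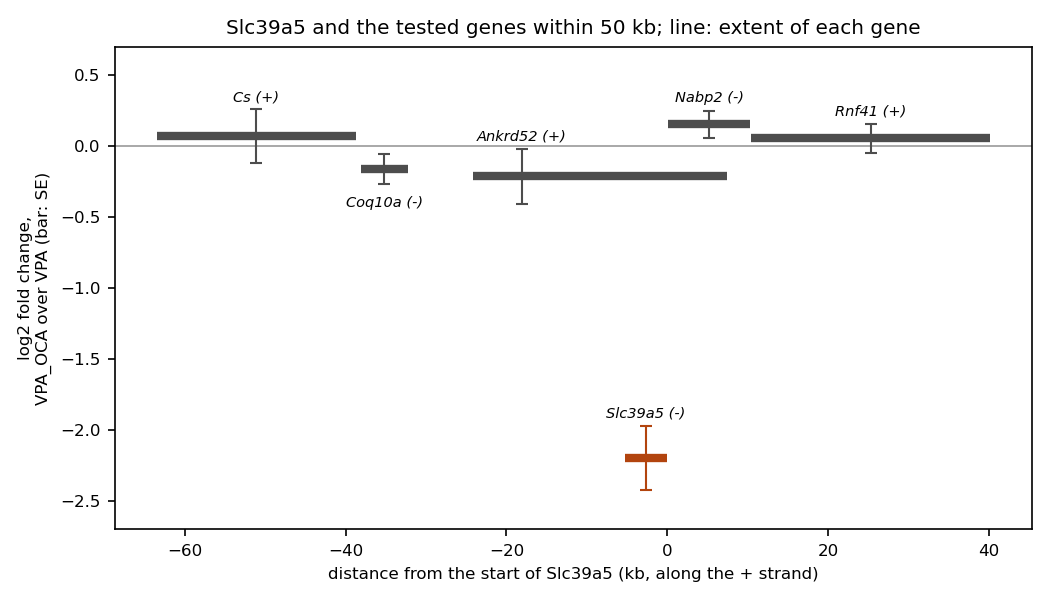
Log2 fold change of VPA_OCA over VPA (vertical axis, bars are SE) for Slc39a5 and the 5 tested genes within 50 kb, placed by distance from the start of Slc39a5 in kb, with each gene's extent as a line and its strand in brackets. Slc39a5 is at -2.20 and its neighbours lie between -0.21 and 0.15.

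The other members lie apart from each other in GRCm38. Slc39a4 (ENSMUSG00000063354) is on chromosome 15 from 76612385 to 76616852, Slc39a14 (ENSMUSG00000022094) on chromosome 14 from 70303469 to 70351425 and Slc39a7 (ENSMUSG00000024327) on chromosome 17 from 34028267 to 34031690, all on the minus strand. Slc39a1 (ENSMUSG00000052310, 90248172 to 90253612) and Slc39a8 (ENSMUSG00000053897, 135825279 to 135888572) are on the plus strand of chromosome 3. Slc30a10 (ENSMUSG00000026614, 185454848 to 185468762) and Slc30a1 (ENSMUSG00000037434, 191906767 to 191913247) are on the plus strand of chromosome 1.

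The 5 other ZIP members did not pass the test. Slc39a14, which carries zinc, manganese and non-transferrin iron into hepatocytes, had 3150, 3609 and 4349 normalized counts (lowest, median and highest) in VPA_OCA and 3874, 4230 and 4687 in VPA. The means of Slc39a14 were 3724 ± 451 in VPA_OCA and 4253 ± 333 in VPA (log2 fold change -0.20 ± 0.10 SE, limma adjusted p = 0.54), and its groups overlapped. The 95% interval of its fold change was 0.758 to 1.004.

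Slc39a7, which releases zinc from the endoplasmic reticulum and Golgi, had the second smallest p of the 10 genes. Its lowest, median and highest normalized counts were 715, 1091 and 1294 in VPA_OCA and 1136, 1273 and 1372 in VPA. Of the VPA_OCA libraries 4 lay below every VPA library, and the groups overlapped. The log2 fold change was -0.30 ± 0.13 (SE), with an unadjusted p of 0.0299 and a limma adjusted p of 0.45; the fold change lay between 0.675 and 0.977 in its 95% interval.

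Slc39a8, the importer of zinc and manganese whose loss in people causes manganese deficiency, had 412, 499.7 and 539 normalized counts in VPA_OCA (lowest, median, highest) and 393, 420.1 and 489 in VPA. The VPA_OCA values reached higher, but the ranges overlapped (log2 fold change 0.18 ± 0.09 SE, limma adjusted p = 0.58, 95% interval of the fold change 0.988 to 1.30). Slc39a1, a broadly expressed plasma membrane importer, had 1287, 1402 and 1743 in VPA_OCA and 1374, 1529 and 1660 in VPA (log2 fold change -0.06 ± 0.09 SE, limma adjusted p = 0.92). The 95% interval of its fold change, 0.842 to 1.10, was among the narrowest of the 10.

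Over all 12 libraries Slc39a4, named above, separated by number rather than by treatment. Its normalized counts in VPA_OCA libraries 1 to 6 were 766, 702, 982, 1700, 1832 and 1652. In VPA libraries 1 to 6 they were 879, 920.1, 908, 1300, 1269 and 1609. All 6 libraries numbered 4 to 6 lay above all 6 numbered 1 to 3, with a 1.81-fold difference between the sets. Between the treatments the log2 fold change was 0.08 ± 0.25 (SE), with a limma adjusted p of 0.97 and a 95% interval of the fold change of 0.735 to 1.52. It was -0.16 within numbers 1 to 3 and 0.32 within numbers 4 to 6 (limma adjusted p = 0.68 and 0.28). Within numbers 4 to 6 the VPA_OCA libraries, at 1652 to 1832, all lay above the VPA libraries, at 1269 to 1609. Within numbers 1 to 3 the treatments overlapped.

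Of the exporters, Slc30a10, which in people and mice moves manganese out of cells and is lost in inherited manganese overload, showed the same split. In VPA_OCA libraries 1 to 6 Slc30a10 had 224, 239.5, 254, 398, 474 and 508 normalized counts, and in VPA libraries 1 to 6 it had 256, 224, 241, 539, 382 and 425. The libraries numbered 4 to 6 were 1.88-fold higher than those numbered 1 to 3, without overlap, and within each set the 2 treatments overlapped. Its log2 fold change between the treatments was 0.02 ± 0.25 (SE; limma adjusted p near 1, at 0.996).

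Slc30a1, the plasma membrane zinc exporter and a classical MTF1 target, had 505, 617 and 757 normalized counts in VPA_OCA (lowest, median, highest) and 506, 618 and 922 in VPA. Its libraries numbered 4 to 6 were 1.31-fold higher than those numbered 1 to 3 and did not overlap them. The log2 fold change between the treatments was -0.07 ± 0.14 (SE), with a limma adjusted p of 0.94 and a 95% interval of the fold change of 0.768 to 1.18.

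Of the 10 members 3, Slc39a4, Slc30a1 and Slc30a10, did not overlap between the sets of numbers, all higher in numbers 4 to 6. Over all genes tested, 5.65% did so in that direction, 4.97% in the other and 10.6% in either. Among their relatives, Slc30a4 and Slc30a9 went the other way. Slc30a4 lay at 187 to 235 in numbers 4 to 6 and at 239 to 327 in numbers 1 to 3, and Slc30a9 lay at 941 to 1051 in numbers 4 to 6 and at 1178 to 1568 in numbers 1 to 3.

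The metallothioneins Mt1 and Mt2 had the widest spread within a treatment and did not pass the test between treatments. Mt1 had 10080, 5456, 4462, 3838, 5562 and 3818 normalized counts in VPA_OCA libraries 1 to 6. In VPA libraries 1 to 6 Mt1 had 5389, 6556, 5469, 5336, 7162 and 12200. One library in each group stood far above the others, VPA_OCA library 1 and VPA library 6, and the groups overlapped. The Mt1 means were 5536 ± 2351 in VPA_OCA and 7019 ± 2645 in VPA, a log2 difference of -0.36 ± 0.24 (SE) by limma (adjusted p = 0.71).

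Mt2 had 7423, 2365, 1419, 1730, 2490 and 1702 normalized counts in VPA_OCA libraries 1 to 6. The VPA libraries 1 to 6 had 2864, 3514, 2606, 3168, 3645 and 7811 counts of Mt2. The groups overlapped through VPA_OCA library 1, and every other VPA_OCA library had less Mt2 than every VPA library. Setting that library aside for its own Mt2 value builds in part of this separation, which is not a result. The Mt2 means were 2855 ± 2276 in VPA_OCA and 3935 ± 1938 in VPA, a log2 difference of -0.62 ± 0.35 (SE) by limma (adjusted p = 0.64), with a 95% interval of the fold change of 0.391 to 1.09.

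Without VPA_OCA library 1 and VPA library 6, Mt2 averaged 1941 ± 462 in VPA_OCA and 3159 ± 434 in VPA (SD, n = 5 each), a log2 fold change of -0.72 with a limma adjusted p of 0.091 (0.091 to 0.99 over 30 alternatives). Mt1 without them averaged 4627 ± 846 in VPA_OCA and 5982 ± 830 in VPA, a log2 fold change of -0.38 with a limma adjusted p of 0.50 (0.27 to 0.91 over 30 alternatives). These libraries were set aside because of their metallothionein values, so the narrower spread is built in and neither value is a result. Within numbers 1 to 3 the log2 fold change was 0.11 for Mt1 and -0.02 for Mt2, and within numbers 4 to 6 it was -0.84 and -1.21, each short of the threshold (smallest limma adjusted p 0.16).

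Mt1 and Mt2 lie 5513 bases apart on chromosome 8, Mt2 (ENSMUSG00000031762) from 94172664 to 94173568 and Mt1 (ENSMUSG00000031765) from 94179082 to 94180327 on the plus strand (GRCm38), and their levels went together across libraries. On the log2 scale Pearson's r was 0.985 in the 6 libraries numbered 4 to 6 (exact permutation p = 0.0042, adjusted 0.0139 over 4 relations; Spearman's rho 0.943, exact permutation p = 0.0167, adjusted 0.0222). In the 6 numbered 1 to 3 r was 0.977 (exact permutation p = 0.0069, adjusted 0.0139; rho 0.829, exact permutation p = 0.058, adjusted 0.058). Without the 2 libraries farthest from the median of Mt1, r was 0.924 in numbers 4 to 6 and 0.860 in numbers 1 to 3 (exact permutation p = 0.125 and 0.21, n = 4 each). Neither passed the threshold. With 4 libraries only the most extreme pairing could pass, so these p-values cannot decide whether the relation held without them. All tests were two-sided, and both treatments enter each set.

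The ratio of Mt2 to Mt1 was 0.736 in VPA_OCA library 1 and 0.318 to 0.451 in the other VPA_OCA libraries. In VPA library 6 the ratio was 0.640, and it was 0.477 to 0.594 in the other VPA libraries. The 2 libraries with the most metallothionein thus also had the highest share of Mt2. Their coding sequences, 186 bases each in GENCODE M21, are 79.6% identical, with 20 cysteine codons of 61 in each, and the longest run of bases the 2 transcripts share is 20. How the authors' counting treated reads that fit both genes is not given in the sources used here.

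**Figure D3:**
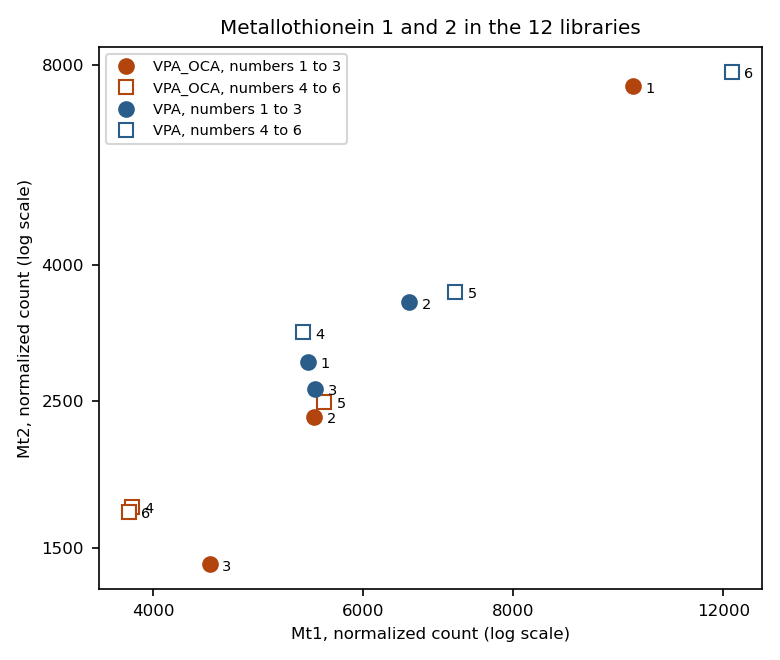
Normalized counts of Mt1 (horizontal, log scale) and Mt2 (vertical, log scale) in the 12 livers, labelled with the library number, coloured by treatment and shaped by number set. VPA library 6 (12200 and 7811) and VPA_OCA library 1 (10080 and 7423) lie far above the other 10.

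Per length, in the authors' FPKM (a count scaled by gene length and library total), the metallothioneins were the most abundant of the 10 and the order was nearly the same in both groups. Mt1 averaged 344 ± 148 FPKM in VPA_OCA and 433 ± 156 FPKM in VPA, and Mt2 averaged 299 ± 240.3 FPKM in VPA_OCA and 408 ± 193 FPKM in VPA (SD, n = 6 each), with overlapping ranges. Next came Slc39a14, at 115 ± 14.3 FPKM in VPA_OCA and 130.5 ± 12.7 FPKM in VPA, below every Mt2 value of its group. Slc39a7 averaged 33.6 ± 7.02 FPKM in VPA_OCA and 40.5 ± 3.36 FPKM in VPA. Slc39a1 averaged 29.1 ± 3.19 FPKM in VPA_OCA and 30.0 ± 2.34 FPKM in VPA, and Slc39a4 26.9 ± 10.7 FPKM in VPA_OCA and 24.1 ± 6.02 FPKM in VPA. Slc39a7, Slc39a1 and Slc39a4 overlapped in VPA_OCA, while in VPA Slc39a7 lay above every value of both others.

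Slc39a5 averaged 2.88 ± 1.20 FPKM in VPA_OCA and 12.6 ± 2.52 FPKM in VPA. In VPA it overlapped Slc30a1, at 9.78 ± 1.62 FPKM in VPA_OCA and 10.3 ± 2.29 FPKM in VPA, and lay above Slc39a8, at 6.72 ± 0.636 FPKM in VPA_OCA and 5.88 ± 0.539 FPKM in VPA. In VPA_OCA Slc39a5 lay below Slc39a8 without overlap and overlapped Slc30a10, the lowest of the 10 at 2.81 ± 1.02 FPKM in VPA_OCA and 2.76 ± 1.03 FPKM in VPA. Of the summed FPKM of the 14 ZIP genes, Slc39a5 made up 1.09% ± 0.42 in VPA_OCA and 4.30% ± 0.66 in VPA. The sum itself was 262 ± 22.5 FPKM in VPA_OCA and 291 ± 19.97 FPKM in VPA. In whole liver, fewer cells of a type and less RNA per cell cannot be told apart.

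**Figure D4:**
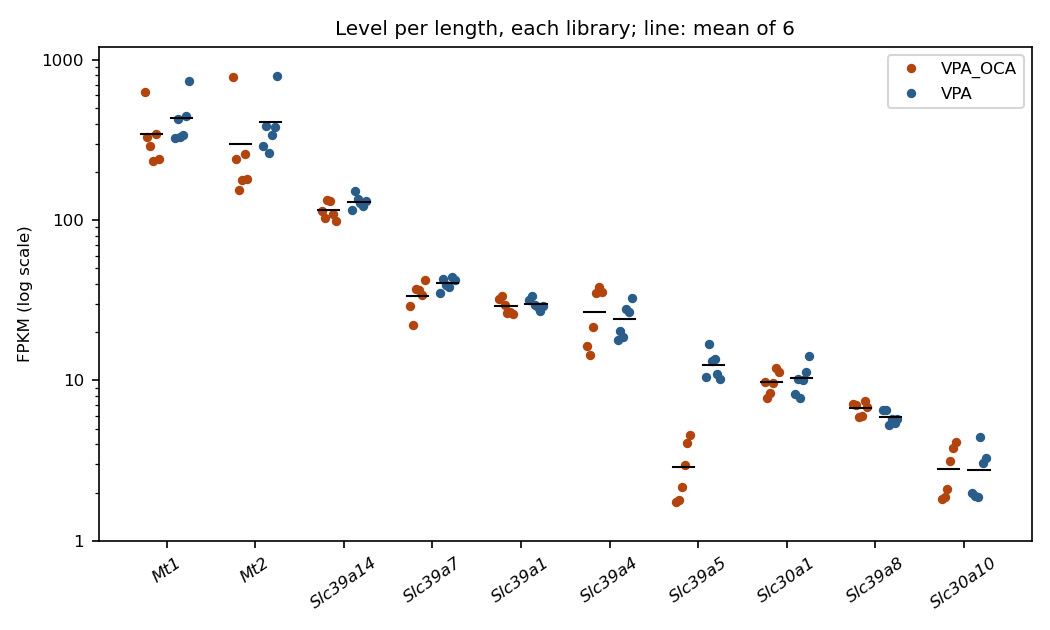
FPKM of each gene in every library (vertical axis, log scale), ordered by the VPA mean, VPA_OCA to the left of VPA, with a line at the mean of 6. Slc39a5 is the 7th in VPA at 12.6 FPKM and lies beside Slc30a10 in VPA_OCA at 2.88 FPKM.

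The complete families hold 28 genes, of which 25 were tested: 14 ZIP genes, 9 ZnT genes and 2 metallothioneins. Slc39a5 passed and 24 did not, and Slc39a7 was the only other with an unadjusted p under 0.05. The median log2 fold change of the 25 was 0.005, with 12 of 25 below 0, and over all genes tested the median was -0.0005, with 50.1% below 0. None of the 15 tested relatives outside the 10 passed. Those with the smallest p were Slc39a2, Slc30a7 and Slc30a8. Slc39a2, a plasma membrane importer, had 20.1, 22.7 and 36.5 normalized counts in VPA_OCA (lowest, median, highest) and 20.2, 35.6 and 55.2 in VPA (log2 fold change -0.44 ± 0.25 SE, limma adjusted p = 0.65). Slc30a7, which loads zinc into the Golgi, had 254, 392 and 438 in VPA_OCA and 395, 409 and 448 in VPA (limma adjusted p = 0.74). Slc30a8, the transporter of insulin granules, was at 1.07 to 13.6 in VPA_OCA and 1.003 to 6.24 in VPA (limma adjusted p = 0.79). Mt3 was at 0 in all 12 libraries, and Slc30a2 and Mt4 were too low to test.

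**Figure D5:**
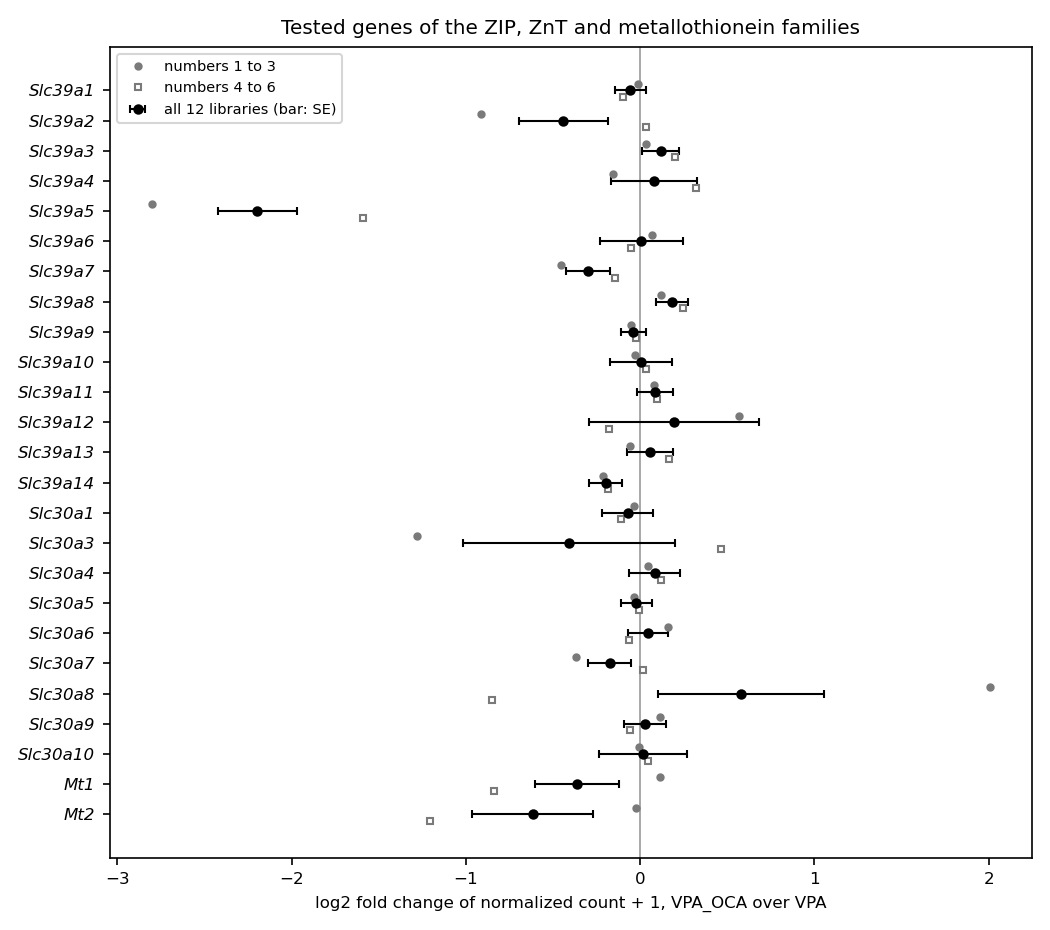
Log2 fold change of VPA_OCA over VPA (horizontal axis) for the 25 tested genes of the families, with its SE, and the values within numbers 1 to 3 (grey circles) and 4 to 6 (grey squares). Slc39a5 lies at -2.20, and at -2.80 and -1.59 within the sets; among the 22 genes with a VPA mean of at least 20 the others lie between -0.62 and 0.18.

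In the authors' deposited table, 22 of the family genes were called present, and Slc39a5 was the only one with an adjusted p under 0.05, at 1.05e-09; that table has 697 such genes. Slc39a7 followed with 0.092 in the authors' deposited table.

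Lists of genes that share metal handling with the members are given by their counts, beside 0.721% of all genes tested that passed. None of the 6 genes of zinc sensing and accessory transport passed, Cnnm4, a magnesium transporter gene, having the smallest p among them (56.3 ± 17.7 in VPA_OCA, 70.8 ± 9.15 in VPA; limma adjusted p = 0.60). The list includes Mtf1, and its median log2 fold change was -0.001. Of 11 genes of copper handling 1 rose, Steap3, a metal reductase of the transferrin cycle (468 ± 137 in VPA_OCA, 250.2 ± 30.3 in VPA; log2 fold change 0.86 ± 0.17 SE, limma adjusted p = 0.025). The log2 fold change of Steap3 was 0.56 within numbers 1 to 3 and 1.16 within numbers 4 to 6 (limma adjusted p = 0.10 and 0.0057). None of 11 manganese and iron partners passed, Atp2c1, a Golgi calcium and manganese pump, having the smallest p (491 ± 26.7 in VPA_OCA, 556 ± 9.91 in VPA; limma adjusted p = 0.41). Of 15 zinc enzymes and zinc carriers 1 fell, Car3, a carbonic anhydrase abundant in liver and fat (7354 ± 1175 in VPA_OCA, 13747 ± 3994 in VPA; limma adjusted p = 0.037). The log2 fold change of Car3 was -1.01 within numbers 1 to 3 and -0.72 within numbers 4 to 6 (limma adjusted p = 0.053 and 0.27).

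Other lists hold the signals known to act on metallothionein genes. None of 10 glucocorticoid-responsive genes passed, 9 of 10 had a log2 fold change below 0 and their median was -0.42. Over all genes tested 50.1% were below 0 and the median was -0.0005. The sum of the 10 ranged widely within each group, 29224 to 103800 in VPA_OCA and 45943 to 127430 in VPA. Fkbp5, a glucocorticoid receptor chaperone, had the smallest p (1721 ± 576 in VPA_OCA, 2362 ± 699 in VPA, limma adjusted p = 0.51). The part of these genes in the Mt1 and Mt2 values was not tested. None of 14 acute phase genes passed, with a median of 0.11 and the smallest p for the interleukin receptor gene Il6ra (934 ± 286 in VPA_OCA, 1378 ± 340.3 in VPA; limma adjusted p = 0.33). None of 8 oxidative stress genes passed, with a median of 0.08 and the smallest p for Nqo1, a quinone reductase (361 ± 75.7 in VPA_OCA, 251 ± 22.3 in VPA; limma adjusted p = 0.13). Of 9 hepatocyte transcription factor genes none passed, the smallest p being that of Foxa3 (674 ± 104 in VPA_OCA, 911 ± 197 in VPA; limma adjusted p = 0.36).

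Slc39a5 is also made by pancreas and intestine, so markers of both were read in every library. Of 12 acinar markers Prss1 was at 0 in all libraries, and their sum was 198 to 368 in VPA_OCA and 181 to 368 in VPA, of which Cela1 made up 174 to 337 in VPA_OCA and 171 to 306 in VPA. Of 10 intestinal markers Alpi, Cdx1 and Cdx2 were at 0 in all libraries. Their sum was 2656 to 6631 in VPA_OCA and 1524 to 3159 in VPA, of which Fabp2, a fatty acid binding protein, made up 2653 to 6629 in VPA_OCA and 1518 to 3154 in VPA (limma adjusted p = 0.18). Of 8 cholangiocyte markers 1 rose, the adhesion gene Cdh1 (583 ± 251 in VPA_OCA, 244 ± 35.4 in VPA; limma adjusted p = 0.037), and 3 of 8 had a log2 fold change below 0. Their sum was 1114 to 1777 in VPA_OCA and 748 to 1195 in VPA. Cdh1 made up 346 to 851 of it in VPA_OCA and 204 to 293 in VPA, and the keratin gene Krt23 made up 157 to 658 in VPA_OCA and 81.0 to 224.5 in VPA. The log2 fold change of Cdh1 was 0.60 within numbers 1 to 3 and 1.69 within numbers 4 to 6 (limma adjusted p = 0.15 and 0.00022). Sox9, a defining duct cell factor, lay at 12.5 to 44.4 in VPA_OCA and 22.0 to 75.6 in VPA. Epcam lay at 10.1 to 29.0 in VPA_OCA and 15.1 to 28.3 in VPA. Spp1 lay at 309 to 658 in VPA_OCA and 365 to 726 in VPA. Every cholangiocyte marker other than Cdh1 overlapped between the groups, so the list as a whole did not rise. The part of these markers in the Slc39a5 difference was not tested. Skeletal muscle transcripts summed to 12.98 to 27.0 in VPA_OCA and 5.27 to 504 in VPA, highest in VPA library 4. With the term for the sets Fabp2, the endothelial marker Lyve1 and the oxidative stress genes Nqo1 and Gclm also passed. Without it, no marker of hepatocytes, erythroid cells, macrophages, sinusoidal endothelium, stellate cells, neutrophils, muscle or adipocytes passed the test. Below 0 were 6 of 8 hepatocyte, 6 of 7 erythroid, 6 of 8 macrophage and 8 of 8 endothelial markers (endothelial median -0.22). So were 6 of 8 stellate cell, 4 of 5 neutrophil, 3 of 3 muscle and 4 of 4 adipocyte markers. Over all genes tested 50.1% were below 0.

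After subtracting the mean of each treatment within each set of numbers, the genes whose log2 values were most like those of Slc39a5 over the 12 libraries, among 12286 genes, were St5 (Pearson's r 0.931), Csf1 (0.930), Entpd4 (0.926), Sh3bgrl3 (0.923) and Gsdme (0.915). For Mt1 they were Lonrf3 (0.962), Ifnar2 (0.953), Mt2 (0.952), Slu7 (0.947) and Wdr91 (0.942). Slc39a4 was nearest to Nsun4 (0.938), Uhrf1bp1l (0.930), Pfkp (0.921), Ubqln4 (0.919) and Aplf (0.917), and Slc30a10 to Rab3d (0.965), Cxcl9 (0.950), Pygo1 (0.936), Elp4 (0.932) and Cnn2 (0.930). These are descriptions over 12 libraries that share depth and set, and the highest of so many correlations is high by construction.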

How the data were processed

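Per the labels' protocols, liver RNA was extracted with Trizol and made into libraries with a TruSeq RNA kit. Per the submitters' processing notes, edgeR and the genome build GRCm38.p5 were used; aligner, annotation and strandedness of counting are not given in the sources used. The deposited table holds normalized counts, a signal per gene and library, and FPKM, per the file headers. It also holds the authors' p-values and adjusted p-values, a GC fraction and a gene length. Numbers that combined a decimal comma with an exponent (89 per-library values, 238 p-values, 88 adjusted p-values) had to be divided by 1000; 26 symbols turned into dates were restored through the gene ID. Of low values, 79.8% to 84.6% lay within 0.1 of a whole number of reads, so whole reads were not recovered and no count model was used. Columns were matched to samples by title, with 0 left unused.

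Genes reaching a value of 1 in 6 or more libraries entered limma 3.58.1 (R 4.3.3) as log2(value + 1), with an intensity trend and treatment as the only term, with Benjamini-Hochberg adjustment over all 19006 genes and a threshold of 0.05. Fold changes are on that scale, which understates changes of low genes, and intervals are limma's 95% moderated intervals. Same-numbered libraries of the 2 groups deviated together in each of 6 pairs (correlation of deviations from the group means 0.150 to 0.478). The labels give no pairing. The main fit used none, and a fit with the replicate number as a block is given beside it. Only VPA_OCA libraries 1 and 3 correlated best with the VPA library of their own number, and the others did so with another number of their own set of numbers (1 to 3 or 4 to 6). The labels do not say how mice were housed or sampled, and within a group library pairs differed by 21.7 to 256.9 times sampling variance, so none was treated as a duplicate. On simulated data with 18586 genes in this comparison, limma found 41.8% of planted 1.5-fold changes, 94.0% of planted 2-fold changes and 95.5% of planted 4-fold changes. Of its 162 calls 8 were false. Changes were planted only in genes with a mean of at least 20. Each gene was drawn independently, without the split between the sets of numbers. The rates describe that setting and not lower genes or genes that vary together. The other tools were Python 3.11.15, scipy 1.17.1 and matplotlib 3.10.9.

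The members, the lists, the rule for named genes and the sets of numbers 1 to 3 and 4 to 6 were chosen with earlier results of these data known. Named were all members, the 3 relatives with the smallest p among those that did not pass, up to 4 passing members of each list or else the 1 with the smallest p, tested genes within 50 kb of a member that passed, and the 5 genes most like 4 of the members among genes with a mean of at least 20. Alternatives were other scalings, pseudocounts of 0.1 and 5, filters, thresholds of 0.10 and 0.01, no trend, array weights, a replicate block, a term for the sets, each set alone, a GC correction (loess span 0.4), FPKM, and each library left out. Promoter windows and their motifs were read from RefSeq, in which 8 of the 10 members matched. The values of 1 listed marker gene are not reported here.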

Additional observations from a re-analysis of the deposited data

Results flagged for a closer look

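The tests for a library far from the 5 others of its group covered 36 genes in 2 groups each, and 7 of 72 groups were picked out. Chance picks about 1 in 20 where values are normally distributed and genes independent, which was not shown here. Of the 7 picked out, 4 were metallothionein values. Mt1 and Mt2 went together and were picked out in the same 2 libraries, so these 4 are not independent. Mt1 was 10080 in VPA_OCA library 1, against 3818 to 5562 in the other VPA_OCA libraries, and 12200 in VPA library 6, against 5336 to 7162 in the other VPA libraries. Mt2 was 7423 in VPA_OCA library 1, against 1419 to 2490 in the others, and 7811 in VPA library 6, against 2606 to 3645. VPA_OCA library 1 was also the deepest library, at 37746632 estimated reads, and VPA library 6 had 20901670. The part of depth in these values was not tested. Among the neighbours of Slc39a5, citrate synthase (Cs) was 4323 in VPA library 4, against 2272 to 3000. The muscle creatine kinase Ckm was 127 in the same library, against 0 to 21.8. Rgs5, a marker of stellate cells and pericytes, was 974.6 in VPA_OCA library 2, against 488 to 640 in the others.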

How the results depend on the processing

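Slc39a5 passed under all 30 alternatives, with log2 fold changes of -2.80 to -1.59 and limma adjusted p-values of 1.5e-05 to 0.0062, and it was the only family gene that passed under each. The other 9 members passed under none of the 30. Slc39a4, Slc30a1, Slc30a10 and Mt1 had a fold change of the other sign under some settings. The number of genes that passed (137, with 84 higher and 53 lower) was 210 (129 and 81) with the replicate block, 404 (254 and 150) with a term for the sets of numbers, 223 (141 and 82) at a threshold of 0.10 and 62 (46 and 16) at 0.01. With 1 library left out it ran from 92 to 146 (63 to 97 higher, 28 to 49 lower), and the family count stayed at 1. Without trend 26 genes were lower, and within numbers 4 to 6 alone 29 were. Leaving out VPA 6 and VPA_OCA 1, an alternative chosen after seeing the data, gave 73 (53 higher, 20 lower). Tests of the difference between the sets gave 0 genes with a pseudocount of 5 and 0 without trend, in place of 2 by limma; 1588 had an unadjusted p under 0.05. For Mt1 with Mt2, leaving out the 2 farthest libraries gave r of 0.860 in numbers 1 to 3 and 0.924 in numbers 4 to 6, and leaving out the 2 highest libraries gave 0.946 (exact permutation p = 0.058, n = 5) and 0.949 (0.025); the cause was not tested. Having 6 mice a group limits detection: 41.8% of simulated 1.5-fold changes were recovered.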
